A study of Arabidopsis thaliana with 11 samples.

Results

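The genes described here are 41 cytosolic ribosomal protein genes of Arabidopsis thaliana, chosen from a given list of gene identifiers, with no threshold on their measured values. They make up 41 of the 33602 genes in the expression table. Of these, 17 encode proteins of the small subunit, 21 encode proteins of the large subunit and 3 encode proteins of the stalk, a flexible arm of the large subunit. The RefSeq annotation names a ribosomal protein or ribosomal protein family as the product of every listed gene except AT3G10090 and RPS10B, which it describes by their protein domains.

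Cytosolic ribosomes translate the mRNAs of nuclear genes, and each ribosome carries a fixed set of proteins on its ribosomal RNAs. In plants almost every ribosomal protein is encoded by a small family of similar genes, and mutants of several of them show altered leaf shape or embryo arrest. Plant ribosomal protein gene promoters are known for short motifs near the transcription start, the telo box and the site II element. Phosphorylation of the small subunit protein S6 by S6 kinases, downstream of the TOR kinase, is a widely used readout of the nutrient state.

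The samples were whole seedlings of ecotype Columbia, 11 days old, raised in continuous light on MS medium with 2% sucrose. MI12 carried an artificial miRNA against PTB1 (AT3G01150) and PTB2 (AT5G53180), and MI3 carried an artificial miRNA against PTB3 (AT1G43190). OE1, OE2 and OE3 overexpressed PTB1, PTB2 and PTB3, in that order, and WT was the wild type. PTB proteins are RNA-binding splicing regulators, and the study compared plants with lowered and raised PTB levels with wild type. The labels give 11 libraries, 1 for MI3 and 2 for each other genotype, and 1 line number per transgenic genotype, so that each genotype stands for 1 line. What drives the transgenes was not given in the sources used here.

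The table holds 1 value per gene and genotype in RPKM (reads scaled to gene length in kilobases and to depth in mega-reads), so no spread between replicates and no test was available, and every difference below describes these 6 columns. Depth recovered from the spacing of low values was about 46.7 mega-reads for MI3 and 80.0 to 96.4 mega-reads for the other columns. The targeted genes followed the labels: PTB1 was at 2.54 RPKM in MI12 and 603 in OE1, against 9.46 in WT, PTB2 was at 4.01 in MI12 and 343 in OE2, against 9.03 in WT, and PTB3 was at 3.54 in MI3 and 65.4 in OE3, against 19.5 in WT. OE1 and OE2 were not raised in both genes: PTB2 was at 5.74 RPKM in OE1 and PTB1 at 6.49 RPKM in OE2, both below WT. Of markers for parts of the plant, the flower genes AG and AP3 lay between 0.014 and 0.226 RPKM in all columns. The seed storage gene CRA1 was at 23.8 RPKM in MI12 and 1.30 in MI3, 12.7 in OE1 and 9.42 in OE2, and 12.8 in OE3, against 2.79 in WT. The other seed gene looked at, AT4G27140, reached 1 RPKM in fewer than 2 columns, so these seed values rest on 1 gene. Differences are given on the log2(RPKM + 1) scale, line minus WT, which understates the change of low genes. A gene was compared if 2 or more of the 6 columns held 1 RPKM or more, which left 19669 genes, and all 41 listed genes passed with values above that level in every column. Intervals for ratios are approximate 95% exact counting intervals on recovered reads, which cover counting error only.

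Most of the listed genes were highly abundant transcripts, while a few were low. Their mean RPKM over the 6 columns had a median of 154, against 8.75 for all compared genes, and 24 of the 41 stood among the 500 highest genes, a rank that 2.54% of compared genes reach. On this per-length scale 35 genes lay between 68.4 and 320.3 RPKM, and the other 6 lay between 3.11 and 20.2 RPKM with no gene in between. Those 6 were AT3G10090 (S28), AT5G39850 (S9), RPL16A (L11), RPL10B (L10), RPSAb (Sa) and AT2G40010 (P0), and each belongs to a family with a far more abundant gene.

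The 3 highest genes came from different families. AT1G70600, for the large subunit protein L27a (chr1:26620821-26621779, minus strand in TAIR10.1), was at 313 RPKM in MI12 and 301 in MI3, 308 in OE1 and 322 in OE2, and 335 in OE3, against 343 in WT. AT5G20290, for the small subunit protein S8 (chr5:6851341-6853106, minus strand), was at 293 RPKM in MI12 and 293 in MI3, 331 in OE1 and 331 in OE2, and 316 in OE3, against 316 in WT. RPL3A, for L3 near the site of peptide bond formation (chr1:16266553-16268945, plus strand), was at 289 RPKM in MI12 and 295 in MI3, 312 in OE1 and 317 in OE2, and 314 in OE3, against 312 in WT. WT held the highest value of AT1G70600, while OE2 held that of the other two, and either MI12 or MI3 held the lowest value of each. RPL3A lies 6162 bases from PTB3 on chromosome 1, and its levels in MI3 and OE3 stood within the range of the other columns.

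The 3 lowest genes varied more between columns. RPL10B, for L10, a late-joining large subunit protein (chr1:9321650-9323028, plus strand), was at 12.6 RPKM in MI12 and 14.8 in MI3, 11.4 in OE1 and 11.5 in OE2, and 13.3 in OE3, against 11.9 in WT. RPSAb, for the small subunit protein Sa (chr3:1309273-1311129, minus strand), was at 6.88 RPKM in MI12 and 5.51 in MI3, 8.35 in OE1 and 6.91 in OE2, and 7.26 in OE3, against 8.02 in WT. AT2G40010, for the stalk base protein P0 (chr2:16708379-16710772, minus strand), was at 3.21 RPKM in MI12 and 2.59 in MI3, 3.73 in OE1 and 3.02 in OE2, and 3.38 in OE3, against 2.72 in WT. MI3 was the highest column for RPL10B and the lowest for the other two. OE1 was the highest column for RPSAb and AT2G40010 and the lowest for RPL10B.

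**Figure D1:**
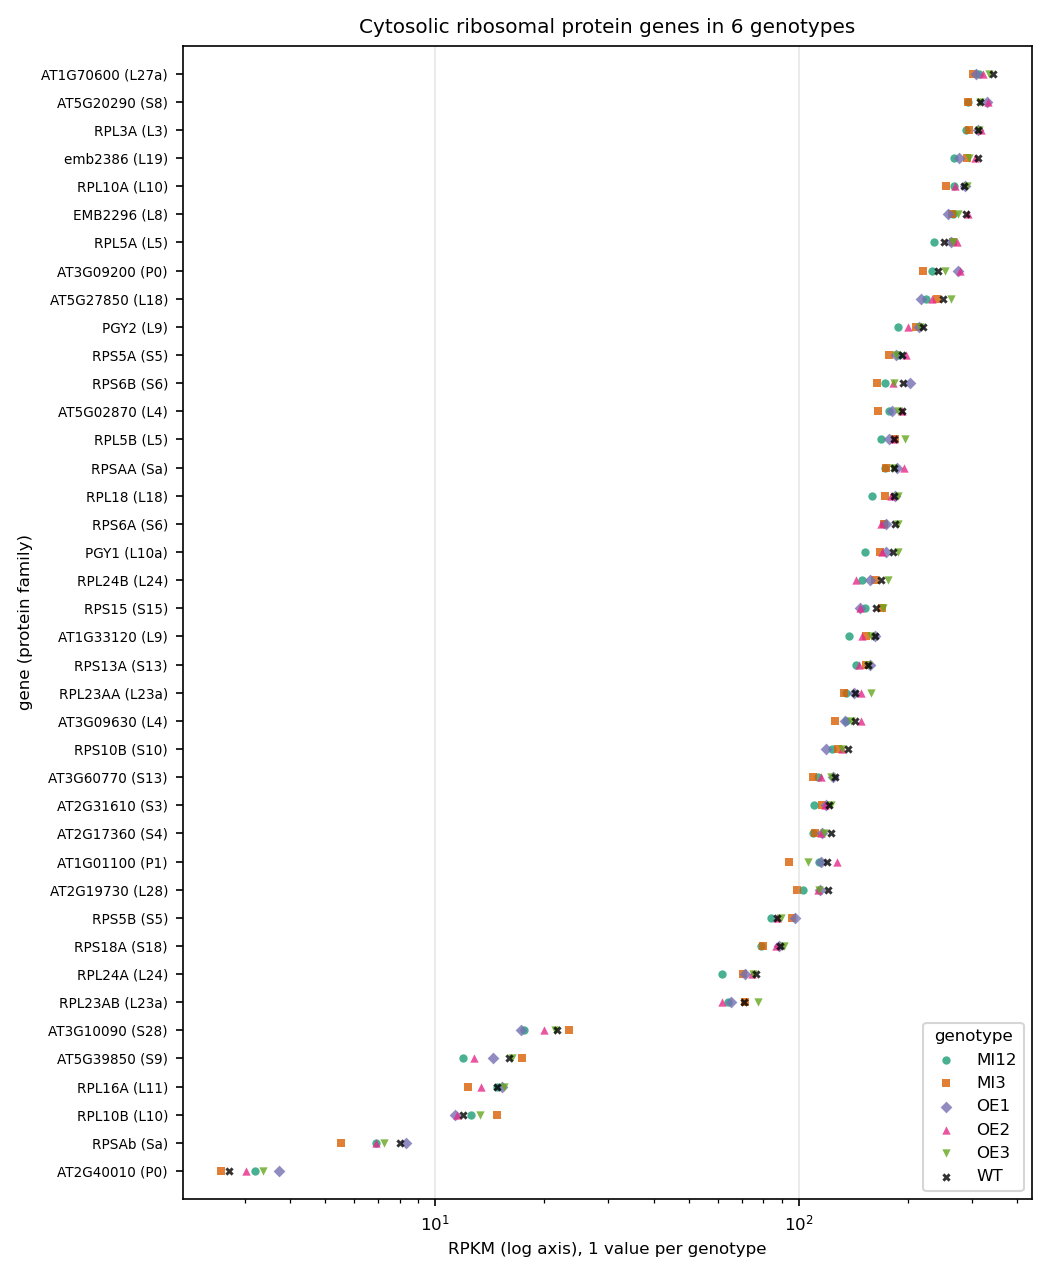
RPKM (log axis) of 40 of the 41 cytosolic ribosomal protein genes, sorted by mean; each marker is the authors' value for 1 genotype, with no replicates. The upper genes lie between 68.4 and 320.3 RPKM in the mean and the 6 lower ones between 3.11 and 20.2 RPKM, and the 6 markers of a gene lie close together.

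Levels varied little between the 6 columns. The ratio of the highest to the lowest column had a median of 1.17 over the listed genes (range 1.09 to 1.52), against 1.40 over all compared genes and 1.42 over the 1652 genes of at least 50 RPKM. It was under 1.5 for 40 of the 41 genes, all except RPSAb, where 59.7% of all compared genes and 57.5% of genes of at least 50 RPKM were under 1.5. RPS13A was the steadiest gene, at 144 RPKM in MI12 and 153 in MI3, 157 in OE1 and 146 in OE2, and 155 in OE3, against 155 in WT, a ratio of 1.09. Among the 6 low genes the ratio ran from 1.26 to 1.52, and among the 35 abundant ones from 1.09 to 1.36. Over 159 other cytosolic ribosomal protein genes the ratio had a median of 1.20, and 96.2% of them were under 1.5.

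The promoters of these genes carried the known motifs more often than promoters at large. Windows ran from 250 bases before to 50 bases after the RefSeq start (TAIR10.1), and both strands were searched for the telo box AAACCCTA and for site II, TGGGCC or TGGGCT; overlapping matches were counted by position. Site II was found in 33 of 41 promoters (80.5%), against 21.7% of 27443 nuclear coding genes, and the telo box in 17 (41.5%), against 6.22%. Both motifs stood together in 14 promoters (34.1%), against 2.2% of all, and 36 (87.8%) held at least 1 of them, against 25.7%. The 170 other cytosolic ribosomal protein genes by annotation were similar, with site II in 75.9% and the telo box in 51.2%. In the listed promoters the 93 site II matches had a median position of -39 relative to the start and the 18 telo boxes one of 17.5. The promoters without either motif were those of RPS5B, RPL23AA, RPS13A, AT3G10090 and RPSAb.

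The sequences below are the 250 bases before the start of 5 genes, written 5′ to 3′ along the gene. They are shown because they span the range of levels: the highest gene and both genes of the 2 most uneven paralog pairs (P0 and Sa). Capitals mark the matches, a telo box on the other strand reading TAGGGTTT.
AT1G70600 (chr1:26621780-26622029, minus strand): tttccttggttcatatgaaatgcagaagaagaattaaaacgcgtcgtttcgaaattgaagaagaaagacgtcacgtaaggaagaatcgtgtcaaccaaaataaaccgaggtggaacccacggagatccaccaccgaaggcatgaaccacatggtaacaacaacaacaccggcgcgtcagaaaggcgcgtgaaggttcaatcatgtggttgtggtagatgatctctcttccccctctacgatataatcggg
AT3G09200 (chr3:2825242-2825491, minus strand): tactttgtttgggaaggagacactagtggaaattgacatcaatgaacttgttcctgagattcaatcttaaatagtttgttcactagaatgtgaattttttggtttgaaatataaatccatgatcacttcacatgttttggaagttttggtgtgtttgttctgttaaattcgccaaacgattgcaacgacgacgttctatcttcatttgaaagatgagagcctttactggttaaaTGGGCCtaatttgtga
AT2G40010 (chr2:16710773-16711022, minus strand): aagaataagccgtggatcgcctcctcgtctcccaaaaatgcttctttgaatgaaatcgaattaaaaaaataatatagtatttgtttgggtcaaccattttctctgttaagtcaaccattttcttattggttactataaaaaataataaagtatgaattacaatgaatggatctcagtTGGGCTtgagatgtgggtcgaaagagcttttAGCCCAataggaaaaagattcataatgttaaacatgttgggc
RPSAA (chr1:27244932-27245181, minus strand): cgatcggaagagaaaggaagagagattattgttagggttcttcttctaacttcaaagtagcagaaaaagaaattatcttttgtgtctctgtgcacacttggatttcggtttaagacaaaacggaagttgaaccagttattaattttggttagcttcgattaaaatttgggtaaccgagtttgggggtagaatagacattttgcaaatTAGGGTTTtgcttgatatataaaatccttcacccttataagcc
RPSAb (chr3:1311130-1311379, minus strand): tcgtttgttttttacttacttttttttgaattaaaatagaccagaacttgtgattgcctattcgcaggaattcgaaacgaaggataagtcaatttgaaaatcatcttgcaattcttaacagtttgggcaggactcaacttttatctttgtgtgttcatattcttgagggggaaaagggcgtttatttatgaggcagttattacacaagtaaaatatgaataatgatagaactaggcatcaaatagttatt
Matches before the start differed between these 5 genes. AT1G70600 had 0 matches before its start, with both of its site II matches after it. AT2G40010, the lowest gene, had 2 site II matches before the start, where AT3G09200, its abundant P0 partner, had 1. In the Sa pair the abundant RPSAA had 1 telo box and RPSAb had 0 matches of either kind. Over the list, the telo box stood in the whole window of 16 of the 35 abundant genes (45.7%) and 1 of the 6 low genes (16.7%). Site II stood in 82.9% of the abundant and 66.7% of the low genes, and neither motif in 8.57% of the abundant and 33.3% of the low genes.

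**Figure D2:**
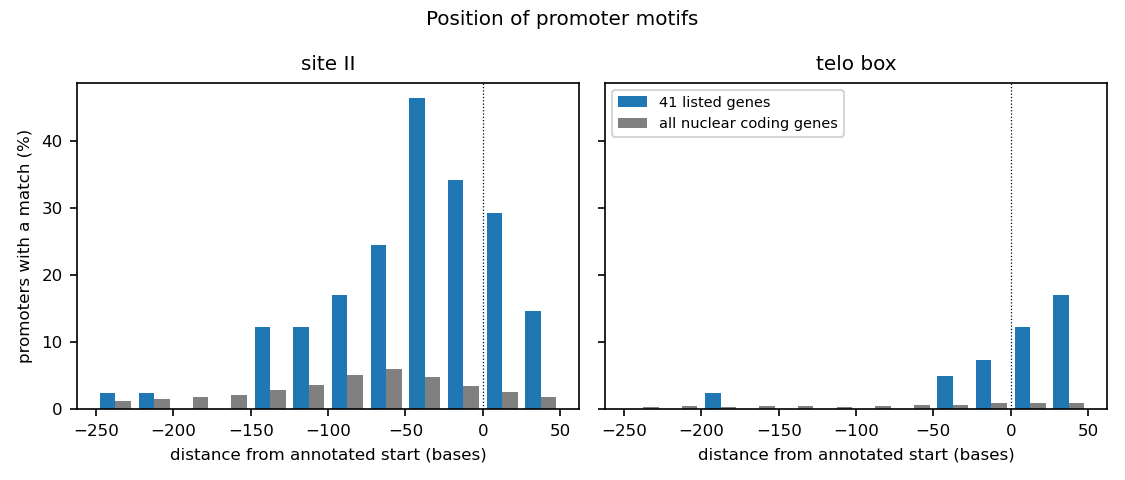
Percentage of promoters with a match centred in each 25-base bin, for the 41 listed genes and for all nuclear coding genes (TAIR10.1), against distance from the annotated start in bases. Site II was most frequent 50 to 25 bases before the start, in 46.3% of listed promoters against 4.84% of all, and the telo box 25 to 50 bases after it, in 17.1% against 0.896%.

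Almost every listed gene was slightly lower in the line with lowered PTB1 and PTB2. The 5 comparisons with WT share its values. In MI12 their summed level was 5911 RPKM, against 6490 RPKM in WT, or 91.1% of WT, and 38 of 41 genes lay below WT, where 51.5% of all compared genes did. Their median difference was -0.12, against -0.01 over all compared genes and -0.07 over genes of at least 50 RPKM, and it kept its sign under every alternative tried (-0.06 with 31 of 41 genes below WT after quantile normalization). Of the 1652 genes of at least 50 RPKM, 1059 lay below WT in MI12. All 17 small subunit genes and 19 of 21 large subunit genes were lower in MI12, each set with a median of -0.14. The sizes were small. A gene was counted as past the fold threshold if it was at least 25% above or 20% below on the log2(RPKM + 1) scale. In MI12 1 listed gene was past it on the lower side, against 6.78% of all compared genes, and 0 genes changed 2-fold in either direction, against 0.503%.

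AT5G39850, for S9, a protein of the decoding region (chr5:15949910-15951475, plus strand), was the gene past the threshold, at 11.96 RPKM in MI12 and 17.3 in MI3, 14.5 in OE1 and 12.8 in OE2, and 16.3 in OE3, against 16.01 in WT. MI12 was its lowest column and MI3 its highest, and the MI12 to WT ratio was 0.747 (counting interval 0.693 to 0.807). RPL24A, for the large subunit protein L24, followed at 61.5 RPKM in MI12 and 70.3 in MI3, 71.5 in OE1 and 74.6 in OE2, and 74.8 in OE3, against 76.6 in WT, with MI12 below all other columns and a ratio of 0.803 (0.775 to 0.832). The 3 genes not below WT in MI12 were all of low level, namely AT2G40010 (0.18), RPL10B (0.07) and RPL16A (0.00) as log2 differences. Both 18S ribosomal RNA genes in the table stood at 2325 RPKM in MI12, against 1391 RPKM in WT. With organelle and ribosomal RNA genes left out of the scaling, 37 of 41 listed genes were still lower in MI12 and their sum was 93.2% of WT. Of 9 genes of dividing cells, 8 lay above WT in MI12, where 9527 of 19669 compared genes did, with a median of 0.09. Their part in the values above was not tested. In whole seedlings, fewer cells of a kind and less RNA per cell cannot be told apart.

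With PTB3 lowered, the listed genes were also mostly lower, but this depended on the scaling. In MI3 their summed level was 6064 RPKM, against 6490 RPKM in WT (93.4%), and 32 of 41 lay below WT, where 43.2% of all compared genes did. Their median difference was -0.10, against 0.05 over all compared genes and -0.08 over genes of at least 50 RPKM; it was -0.17 after median-of-ratios scaling and turned to 0.01 after quantile normalization, with 18 of 41 genes below WT. Of the 1652 genes of at least 50 RPKM, 956 lay below WT in MI3. Of the listed genes 2 were at least 20% lower, against 14.1% of compared genes, and 0 changed 2-fold, against 4.65%. MI3 rests on 1 library with the lowest depth.

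The 2 genes past the threshold in MI3 were RPSAb, given above, at a ratio of 0.687 (0.61 to 0.773), and AT1G01100. AT1G01100, for P1, a stalk protein that contacts elongation factors (chr1:49909-51210, minus strand), was at 114 RPKM in MI12 and 94.1 in MI3, 116 in OE1 and 128 in OE2, and 106 in OE3, against 119.7 in WT. MI3 was the lowest column and OE2 the highest, and the MI3 to WT ratio was 0.787 (0.757 to 0.817). On the other side stood RPL10B, highest in MI3 with a ratio of 1.24 (1.13 to 1.37), and RPS5B. RPS5B, for the small subunit protein S5, was at 84.2 RPKM in MI12 and 96.1 in MI3, 97.6 in OE1 and 87.4 in OE2, and 89.5 in OE3, against 87.5 in WT, with MI3 and OE1 above the other 4 columns. The shoot markers were low in the same column: RBCS1A was at 2666 RPKM in MI3, against 4493 RPKM in WT, and CAB1 at 2840 RPKM in MI3, against 4083 RPKM in WT. Quantile normalization cannot check this, since it gives genes of equal rank the same value in every column. After it the median difference of these 2 markers was 0 in every line. All 3 root markers were above WT in MI3, where 11160 of 19669 compared genes were, with a median of 0.22. EXPA7 was at 16.3 RPKM in MI3, against 5.46 RPKM in WT. These directions were not particular to MI3. All 3 root markers were also above WT in OE3 (median 0.30) and MI12 (0.17), where 11557 and 9527 of 19669 compared genes were. In OE1 and OE2 2 of 3 lay below WT, where 51.1% and 63.1% of compared genes did. Both shoot markers were also below WT in OE3 (median -0.15) and OE1 (-0.21), where 8106 and 10049 of 19669 compared genes were. Both were above WT in OE2, where 7241 of 19669 compared genes were. In MI12 1 shoot marker lay above WT and 1 below. The part of these markers in the values above was not tested.

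In the lines that overexpressed PTB1 or PTB2, the listed genes lay near WT. In OE1 the sum was 6308 RPKM and in OE2 6375 RPKM, against 6490 RPKM in WT, or 97.2% and 98.2% of WT. The median difference was -0.05 in OE1, against -0.01 over all compared genes, with 27 of 41 genes lower, against 51.1% of compared genes; it turned to 0.02 when WT was replaced by the median of the other 4 lines. In OE2 the median was -0.04, against -0.05 over all compared genes, with 27 of 41 genes lower, against 63.1% of compared genes, and it turned to 0.01 after median-of-ratios scaling. Only AT2G40010 in OE1 was at least 25% higher, at a ratio of 1.37 (1.20 to 1.57), against 5.51% of compared genes; 0 listed genes passed the threshold in OE2, against 12.2% in either direction.

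The abundant P0 gene was above WT in OE1 and OE2. AT3G09200, whose product anchors the stalk (chr3:2823088-2825241, minus strand), was at 234 RPKM in MI12 and 219.9 in MI3, 274 in OE1 and 278 in OE2, and 252 in OE3, against 243 in WT. OE1 and OE2 were above the other 4 columns, at ratios to WT of 1.13 (1.11 to 1.15) and 1.15 (1.13 to 1.17). RPL5A, for L5, which carries the 5S ribosomal RNA, was the next furthest above WT in OE2, at 236 RPKM in MI12 and 266 in MI3, 263 in OE1 and 273 in OE2, and 267 in OE3, against 252 in WT, with MI12 as the only column below WT. Below WT in OE1 stood AT3G10090, for the small subunit protein S28, at 17.6 RPKM in MI12 and 23.5 in MI3, 17.2 in OE1 and 20.0 in OE2, and 21.5 in OE3, against 21.7 in WT. Its level in MI12 was about as low as in OE1, and MI3 was its highest column. RPS10B, for S10, was at 123 RPKM in MI12 and 129 in MI3, 119 in OE1 and 132 in OE2, and 132 in OE3, against 137 in WT, lowest in OE1 and highest in WT. RPL24B, for the other copy of L24, was at 149 RPKM in MI12 and 162 in MI3, 157 in OE1 and 144 in OE2, and 176 in OE3, against 168 in WT. OE2 was its lowest column, with a ratio to WT of 0.855 (0.833 to 0.878), while AT5G39850 was the gene furthest below WT in OE2, at a ratio of 0.803 (0.742 to 0.869). All 9 genes of dividing cells lay below WT in OE1, where 51.1% of compared genes did, with a median of -0.31. In OE2 7 of 9 lay below WT, where 63.1% of compared genes did. The OE2 median of these 9 genes was -0.02 and turned to 0.04 after median-of-ratios scaling. In MI12 8 of 9 lay above WT (median 0.09), where 9527 of 19669 compared genes did. In MI3 5 of 9 lay above WT (0.06), where 11160 of 19669 compared genes did. In OE3 all 9 lay above WT (0.06), where 11557 of 19669 compared genes did. The medians over all compared genes were 0.05 in MI3 and 0.04 in OE3. After median-of-ratios scaling 5 of 9 lay above WT in OE3, and after quantile normalization 4 of 9 in MI3. Of the 3 root markers, 2 lay below WT in OE1, where 51.1% of compared genes did, with a median over the 3 of -0.44. The part of these genes in the values above was not tested.

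As deposited, the listed genes were close to WT with PTB3 raised. The OE3 sum was 6504 RPKM, against 6490 RPKM in WT, and 22 of 41 genes were higher, where 58.8% of all compared genes were. The median difference was 0.01, against 0.04 over all compared genes, and it turned to -0.04 after median-of-ratios scaling. In OE3, 0 listed genes passed the threshold, against 15.1% of compared genes in either direction. The genes furthest above WT in OE3 were AT2G40010 (0.23) and RPL10B (0.15), and the furthest below were AT1G01100 (-0.17) and RPSAb (-0.13), all as log2 differences.

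Set against each other, most listed genes were lower in MI3 than in OE3, and lower in MI12 than in the OE1 and OE2 mean. In MI3 against OE3, a comparison that does not use WT, 37 of 41 genes were lower, where 48.9% of compared genes were. Their median was -0.11 (-0.06 after quantile normalization), against 0.01 over all compared genes. Genes of at least 50 RPKM had a median of -0.08, with 1002 of 1652 lower. RPSAb alone was at least 20% lower, against 9.62% of compared genes. In MI12, set against the OE1 and OE2 mean, 36 of 41 were lower, where 42.9% of compared genes were. Their median was -0.10 (-0.03 with 60.98% of listed genes lower after quantile normalization), against 0.03 over all compared genes. Genes of at least 50 RPKM had a median of -0.03 as deposited, with 918 of 1652 lower. In this comparison 0 listed genes passed the threshold, against 17.7% in either direction. OE1 and OE2 hardly differed from each other, with 20 of 41 genes higher in OE1, where 58.5% of compared genes were, and 0 past the threshold, against 15.2%; their median was -0.00 and lay between -0.05 and 0.04 after the scaling alternatives. Over the 6 columns, 18 listed genes had their lowest value in MI12 and 14 in MI3, 6 in OE1 and 3 in OE2, and 0 in OE3 or WT, while 14 had their highest value in OE3, 10 in OE2, 8 in WT, 6 in OE1, 3 in MI3 and 0 in MI12. After quantile normalization the lowest value fell in MI12 for 10 genes, MI3 for 11, OE1 and OE2 for 9 each, OE3 for 0 and WT for 2.

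**Figure D3:**
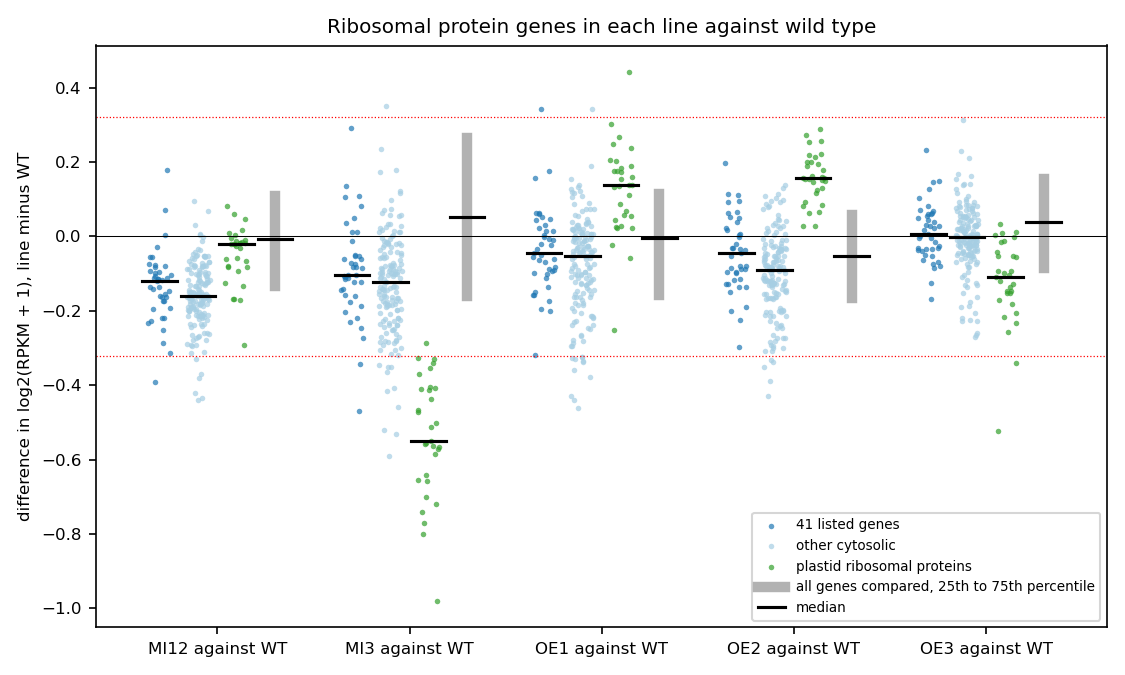
Differences in log2(RPKM + 1), line minus WT, for the 41 listed genes, 159 other cytosolic ribosomal protein genes, 31 plastid ribosomal protein genes and all compared genes (25th to 75th percentile); black lines are medians and dotted lines mark 25% above and 20% below WT. The listed genes had a median of -0.12 in MI12, and of -0.10 in MI3, which turned to 0.01 after quantile normalization; their medians of -0.05 in OE1, -0.04 in OE2 and 0.01 in OE3 turned sign in OE2 and OE3 after median-of-ratios scaling.

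The other cytosolic ribosomal protein genes gave similar values. By annotation there were 170 of them, of which 159 were compared. Below WT lay 154 of 159 in MI12 (median -0.16) and 134 in MI3 (-0.12), where 51.5% and 43.2% of compared genes did. In the overexpressors the count was 114 for OE1 (-0.05), 132 for OE2 (-0.09) and 82 for OE3 (-0.00). Of the 19669 compared genes, 10049 lay below WT in OE1, 12416 in OE2 and 8106 in OE3. The OE3 median turned to 0.03 after quantile normalization, while the signs in the other 4 lines kept under each scaling. Of these, 6 of 159 were at least 20% lower in MI12, a smaller share than the 6.78% of all compared genes. The 3 furthest below WT were AT3G45030 at 68.3 RPKM in MI12 and 88.5 in MI3, 86.4 in OE1 and 83.7 in OE2, and 91.2 in OE3, against 93.0 in WT, AT5G57290 and AT3G13580. AT5G57290 was at 80.6 RPKM in MI12 and 89.6 in MI3, 89.4 in OE1 and 88.5 in OE2, and 90.8 in OE3, against 109 in WT, and AT3G13580 at 45.2 RPKM in MI12 and 54.3 in MI3, 65.6 in OE1 and 58.7 in OE2, and 56.6 in OE3, against 60.9 in WT. MI12 was the lowest column of all 3, and WT was the highest of the first 2.

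Sums over the genes of each protein family spanned a narrower range than single genes. The 41 genes belong to 29 families, which hold 36 further genes at 70% or more protein identity, 77 in all and 2 to 5 per family. Mean family sums ran from 168 RPKM (L28) to 559.9 RPKM (L27a), a 3.34-fold range, where the single listed genes spanned 103-fold. Each of the 6 low genes shares a family with a far more abundant gene, so summing removes the low end by construction. The 35 abundant genes taken singly lay between 68.4 and 320.3 RPKM. The low S9 gene AT5G39850 sits beside AT5G15200, at 250.1 RPKM in MI12 and 243 in MI3, 275 in OE1 and 261 in OE2, and 283 in OE3, against 283 in WT, so the S9 sum was 281 RPKM. The low S28 gene AT3G10090 sits beside AT5G03850, at 130.1 RPKM in MI12 and 128 in MI3, 127 in OE1 and 122 in OE2, and 141 in OE3, against 136 in WT, for an S28 sum of 222 RPKM. Between columns the family sums differed by a median of 1.14-fold (1.05 to 1.34).

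All 29 family sums were below WT in MI12, between 84.8% (L9) and 97.5% (S5) of WT, and 24 of 29 were so after quantile normalization. In MI3, 28 of 29 sums lay below WT, from 77.99% (P1) upward, with L5 at 104% as the exception, and 18 of 29 were so after quantile normalization. In OE1, 21 sums lay below WT, with S10 lowest at 81.3% and P0 highest at 112%. In OE2, 19 lay below WT, from 89.0% (S15) to 113% (P0), and in OE3 14, from 87.5% (P1) to 110% (L23a). After median-of-ratios scaling the counts below WT were 13 in OE2 and 23 in OE3, and after quantile normalization 22 in OE2 and 3 in OE3. The P1 sum was thus furthest below WT in both MI3 and OE3, at 188 RPKM in MI3 and 211 RPKM in OE3, against 241 RPKM in WT.

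**Figure D4:**
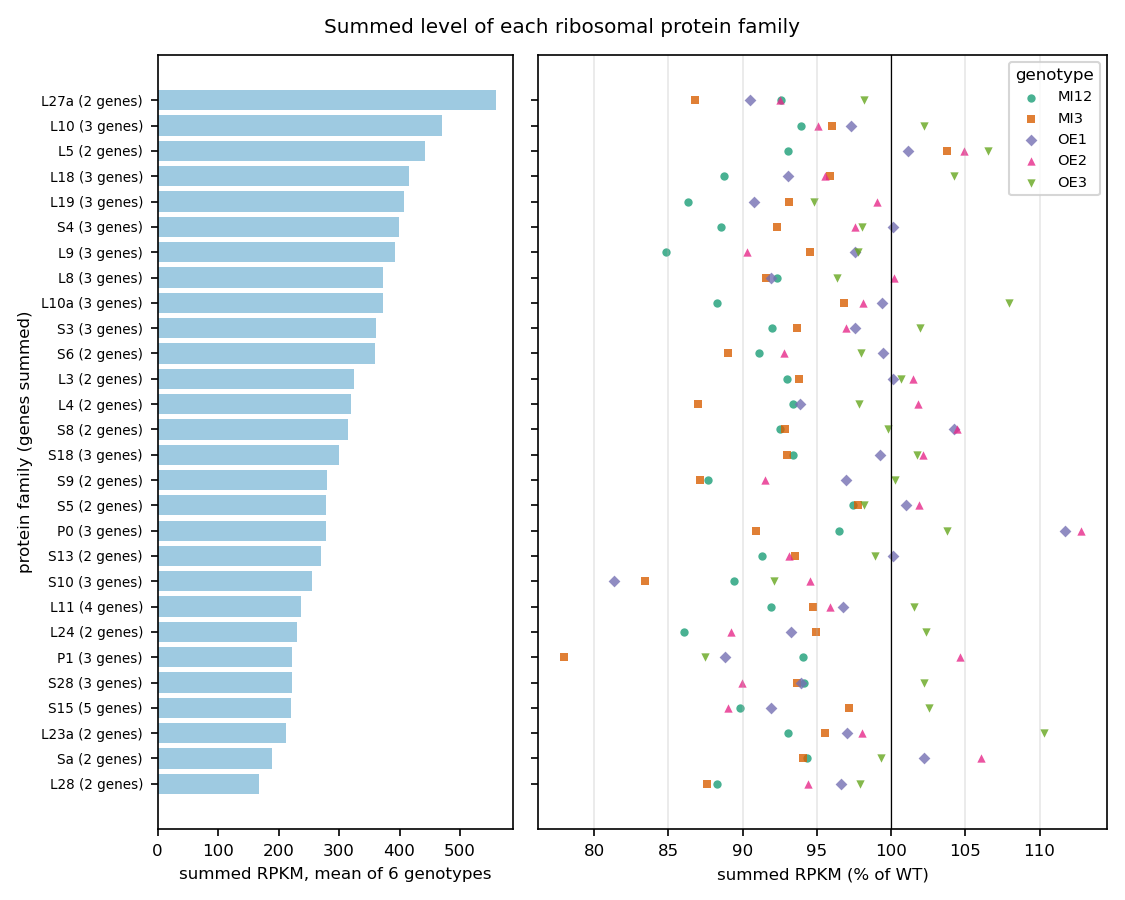
Left, summed RPKM of 28 of the 29 protein families, mean of 6 genotypes; right, the sum in each line as a percentage of WT, 1 value per genotype. All MI12 sums shown lie below 100% (24 of all 29 sums after quantile normalization), and P0 lies at 112% in OE1 and 113% in OE2.

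Within the 12 pairs of listed genes, the division of the pair's total moved by few percentage points. For 12 families the list holds 2 genes, and the share of the more abundant gene in a pair varied by 0.283 to 5.60 percentage points over the 6 columns. The same gene led in all 6 columns for 11 pairs. The exception was S6, the target of S6 kinases, whose copies were nearly even, with RPS6B leading in 4 of 6 columns. A pair's share does not change when a column is rescaled as a whole.

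The 3 pairs whose shares moved most were L23a, L24 and S6. In L23a, a protein at the mouth of the exit tunnel, RPL23AA took 67.9% in MI12 and 65.1% in MI3, 68.5% in OE1 and 70.7% in OE2, and 67.2% in OE3, against 67.0% in WT. RPL23AA was at 135 RPKM in MI12 and 133 in MI3, 142 in OE1 and 148 in OE2, and 159 in OE3, against 143 in WT, and RPL23AB was at 64.0 RPKM in MI12 and 71.4 in MI3, 65.4 in OE1 and 61.4 in OE2, and 77.4 in OE3, against 70.7 in WT. The L23a split was most even in MI3 and least even in OE2. In L24, RPL24B took 70.8% in MI12 and 69.7% in MI3, 68.7% in OE1 and 65.8% in OE2, and 70.1% in OE3, against 68.7% in WT, so that MI12 and OE2 stood at the ends. In S6, RPS6B took 50.2% in MI12 and 49.0% in MI3, 53.8% in OE1 and 51.9% in OE2, and 49.4% in OE3, against 51.2% in WT. RPS6B was at 173 RPKM in MI12 and 165 in MI3, 202 in OE1 and 182 in OE2, and 183 in OE3, against 193 in WT, and RPS6A was at 171 RPKM in MI12 and 171 in MI3, 174 in OE1 and 169 in OE2, and 187 in OE3, against 184 in WT. OE1 was thus the highest column for RPS6B, while OE3 was the highest for RPS6A.

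The most uneven pairs were P0, Sa and L10. AT3G09200 took 98.6% to 98.9% of the P0 pair, an average 80.5-fold above AT2G40010, whose promoter had more site II matches. RPSAA took 95.7% to 96.9% of the Sa pair and was at 173 RPKM in MI12 and 174 in MI3, 186 in OE1 and 195 in OE2, and 182 in OE3, against 183 in WT. RPSAA was highest in OE2, and its levels in MI12 and MI3 lay below the other 4 columns. RPL10A took 94.5% (MI3) to 96.2% (OE1) of the L10 pair, and the remaining share was RPL10B, which was highest in MI3. The third L10 gene, RPL10C, stood at 174 RPKM in MI12 and 194 in MI3, 171 in OE1 and 179 in OE2, and 191 in OE3, against 187 in WT, and MI3 was its highest column too.

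Reads of copies could be mixed up most easily in the L9 pair. PGY2 and AT1G33120 lie 10677 bases apart on chromosome 1, encode identical proteins and share 54.2% and 53.4% of their 50-base words with other transcripts, so their separate values are uncertain. PGY2, named for a leaf polarity mutant, was at 187 RPKM in MI12 and 210.4 in MI3, 214 in OE1 and 199.7 in OE2, and 216 in OE3, against 219.6 in WT. AT1G33120 was at 138 RPKM in MI12 and 153 in MI3, 163 in OE1 and 149 in OE2, and 158 in OE3, against 162 in WT. PGY2 took 56.9% to 57.9% of the pair in all 6 columns, and MI12 was the lowest column of both genes. For the other 39 genes the shared part was under 10%. The handling of reads that match several genes was not given in the sources used here.

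**Figure D5:**
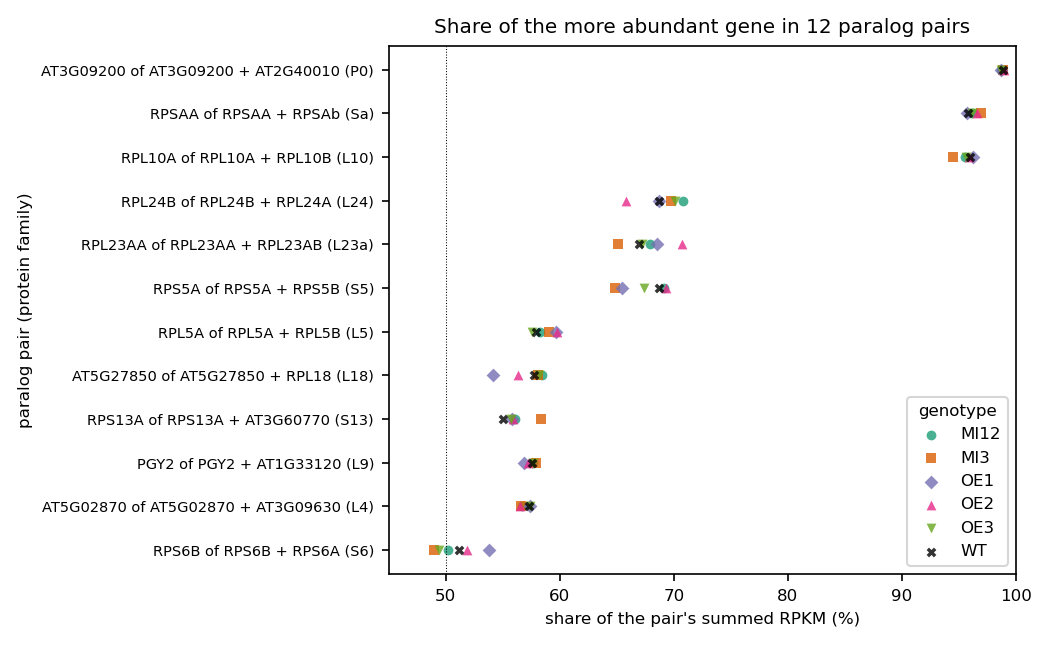
Share of the more abundant gene (percent of the pair's summed RPKM) in the 12 families with 2 listed genes, 1 marker per genotype. The shares of a pair lie within 5.60 percentage points of each other, and only the S6 markers fall on both sides of 50% (dotted line).

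The remaining abundant genes kept the same pattern of small differences. PGY1, for L10a and also named for a leaf polarity mutant, was at 152 RPKM in MI12 and 168 in MI3, 174 in OE1 and 169.8 in OE2, and 188 in OE3, against 182 in WT, lowest in MI12 and highest in OE3. EMB2296 (L8) and emb2386 (L19), both named for embryo-lethal mutants, lay at 258 to 292 RPKM and 268 to 312 RPKM over the columns. RPS18A, named in the literature for a pointed first leaf mutant, was at 78.8 RPKM in MI12 and 79.7 in MI3, 88.5 in OE1 and 87.0 in OE2, and 91.4 in OE3, against 88.9 in WT, with MI12 and MI3 below the other 4 columns. RPS5A, whose promoter is widely used to drive genes in dividing cells, was at 188 RPKM in MI12 and 177 in MI3, 185 in OE1 and 198 in OE2, and 185 in OE3, against 192 in WT. The AT2G19730 gene, for L28, was at 103 RPKM in MI12 and 99.2 in MI3, 115 in OE1 and 113 in OE2, and 114 in OE3, against 120.2 in WT, lowest in MI3 and highest in WT. Further genes, for S3, S4, S13, S15, L4, L5 and L18, had ratios of highest to lowest column between 1.09 and 1.20.

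Plastid ribosomal proteins, which serve the separate ribosomes of the chloroplast, differed from the cytosolic genes in most lines. In MI3 all 31 of them lay below WT, where 43.2% of compared genes did, with a median of -0.55. Of them 30 (27 after quantile normalization, with a median of -0.44) were at least 20% lower, against 14.1% of compared genes. The listed cytosolic genes had a median of -0.10 in MI3. RPL12-A was at 204 RPKM in MI12 and 119 in MI3, 199.8 in OE1 and 231 in OE2, and 174 in OE3, against 208 in WT, and PSRP6 at 149.6 RPKM in MI12 and 107 in MI3, 180.4 in OE1 and 199 in OE2, and 145 in OE3, against 183 in WT. MI3 was the lowest column of both genes and OE2 the highest. In OE1 28 of 31 and in OE2 all 31 plastid genes lay above WT, where 9609 and 7241 of 19669 compared genes did. Their medians were 0.14 and 0.16, against -0.05 and -0.04 for the listed genes. In OE3 the plastid median was -0.11, and in MI12 it was -0.02, which turned to 0.04 after quantile normalization. Their promoters held site II in 45.2% and the telo box in 12.9% of cases.

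Genes that build ribosomes moved apart from the listed genes in OE2. Of 27 ribosome biogenesis genes compared, 26 lay below WT in OE2, where 63.1% of all compared genes did, with a median of -0.27. Of them 8 were at least 20% lower, against 7.83% of compared genes. After quantile normalization the median was -0.21 and 4 passed. FIB2, a fibrillarin that methylates ribosomal RNA, was at 24.3 RPKM in MI12 and 26.6 in MI3, 20.3 in OE1 and 17.8 in OE2, and 25.9 in OE3, against 26.0 in WT. AT3G03920 was at 38.4 RPKM in MI12 and 40.97 in MI3, 36.2 in OE1 and 32.7 in OE2, and 40.0 in OE3, against 44.9 in WT and AT5G08180 at 22.7 RPKM in MI12 and 24.6 in MI3, 22.7 in OE1 and 19.9 in OE2, and 25.7 in OE3, against 26.7 in WT. OE2 was the lowest column of all 3. In MI12 24 of 27 biogenesis genes lay below WT, where 51.5% of compared genes did. Their median was -0.14, against -0.12 for the listed genes. In OE1 15 of 27 lay below WT, where 51.1% of compared genes did, with a median of -0.06. Site II stood in 75% and the telo box in 46.4% of their promoters, against 80.5% and 41.5% of the listed promoters.

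Other translation genes differed among themselves in direction. The 3 RACK1 genes, for a scaffold on the small subunit, had medians of -0.15 in MI12 and -0.14 in MI3, -0.10 in OE1 and -0.10 in OE2, and 0.00 in OE3, the last turning to -0.05 after median-of-ratios scaling. ATARCA, the most abundant of them, was at 153 RPKM in MI12 and 148 in MI3, 150.3 in OE1 and 163 in OE2, and 157 in OE3, against 162 in WT, lowest in MI3. Of 20 translation factor genes, 17 lay above WT in OE1, where 9609 of 19669 compared genes did, with a median of 0.08. In MI12 13 of them lay below WT, where 51.5% of compared genes did. Their MI12 median of -0.03 turned to 0.04 after quantile normalization. AT1G07920, for elongation factor eEF1A, was at 73.2 RPKM in MI12 and 81.9 in MI3, 92.8 in OE1 and 74.5 in OE2, and 79.7 in OE3, against 73.1 in WT, and EIF4G was at 31.7 RPKM in MI12 and 35.3 in MI3, 34.5 in OE1 and 30.0 in OE2, and 31.8 in OE3, against 29.5 in WT. OE1 was the highest column of AT1G07920, and MI3 that of EIF4G. ELF5A-1, for the factor eIF5A, was at 8.21 RPKM in MI12 and 17.1 in MI3, 8.09 in OE1 and 9.69 in OE2, and 11.4 in OE3, against 9.83 in WT, highest in MI3 and lowest in OE1. Of 8 genes of the TOR kinase pathway, 7 lay above WT in OE1, where 9609 of 19669 compared genes did, with a median of 0.13. PK1 (AT3G08730), an S6 kinase, was at 35.3 RPKM in MI12 and 26.2 in MI3, 44.9 in OE1 and 29.5 in OE2, and 30.4 in OE3, against 32.5 in WT, highest in OE1 as was RPS6B, while S6K2 was at 12.3 RPKM in MI12 and 16.5 in MI3, 10.4 in OE1 and 10.4 in OE2, and 11.9 in OE3, against 13.64 in WT, lowest in OE1 and OE2. TOR itself was at 8.56 RPKM in MI12 and 8.46 in MI3, 8.5 in OE1 and 8.28 in OE2, and 8.18 in OE3, against 7.16 in WT, with WT as the lowest column.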

How the data were processed

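RNA was sequenced from seedlings with a TruSeq kit, per the labels' protocols. The authors deposited RPKM values (reads scaled to gene length and depth) in a table whose columns are genotypes, per the file headers. Its build, per the submitters' processing notes, was TAIR10. The aligner, the treatment of shared reads and strand, and the merging of libraries were not given in the sources used here. RefSeq TAIR10.1, used for names, coordinates, promoters and protein identity, held 32835 of the identifiers.

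The planned replicate-based tests needed 1 value per library, so the planned description without tests was used. The rule for the listed genes used no measured value, but they and the other gene lists were chosen with earlier results of these data known. Differences are on the log2(RPKM + 1) scale; 1 WT cell without a number was set to 0. Depth was recovered from the spacing of low values, of which 48.1% to 51.1% were whole reads to within 0.1 (20% by chance), so recovered reads are approximate. Since reads carried no molecular identifiers, they are not independent, and intervals cover counting error only. Paralogs were genes with at least 70% protein identity over at least 60% of the protein (BLAST 2.17.0). Values in every column were given for the 3 highest and 3 lowest genes, the 2 furthest above and below in each line, the 3 pairs with the most moving share, the 2 most uneven pairs and up to 3 genes of each other list; further genes named were chosen after their values were seen. Alternatives covered pseudocounts, filters, scaling, another control, near-identical genes and low genes. Software was pandas 2.3.3 and numpy 2.4.6 under Python 3.11.15, scipy 1.17.1 for intervals and matplotlib 3.10.9 for figures. Some single-gene results are not reported here.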

Additional observations from a re-analysis of the deposited data

How the results depend on the processing

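No paired analysis was possible because the table holds 1 column per genotype; for the same reason no library could be left out. Of 77 alternative values of the median difference, 62 moved by less than the counting half-width of a typical single listed gene. That width is not the error of a median over 41 genes. Leaving out the filter could not move the median, since all 41 genes passed it. The signs in MI12 against WT, MI3 against OE3 and MI12 against the OE1 and OE2 mean held under every alternative. After quantile normalization the median was -0.057 in MI12, 0.010 in MI3 (43.9% of genes lower) and 0.049 in OE3 (19.5% lower), -0.056 in MI3 against OE3 (3 genes at least 20% lower), -0.031 in MI12 against the OE1 and OE2 mean, and 0.035 in OE1 against OE2. After median-of-ratios scaling it was -0.17 in MI3, 0.0095 in OE2, -0.044 in OE3 (70.7% lower), -0.13 in MI12 against the OE1 and OE2 mean, and -0.055 in OE1 against OE2. With WT replaced by the median of the other 4 lines it was -0.054 in MI3, with 0 genes at least 20% lower, 0.025 in OE1 (41.5% lower, 0 genes at least 25% higher), 0.024 in OE2 (39.02% lower) and 0.072 in OE3 (9.76% lower). The cause of these shifts was not tested. Counts past the threshold were too small to be steady. With pseudocounts of 0.1 and 0.5, 1 gene was lower in OE1 and 3 and 2 were lower in MI3 against OE3. Without organelle and ribosomal RNA genes, 1 was lower and 1 higher in MI3, and without genes that have a near-identical protein 1 was lower in MI3. A filter of 5 RPKM left 0 genes higher in OE1. With genes of at least 50 RPKM only, an alternative chosen after seeing the data, 0 genes were lower in MI12, 1 was lower in MI3, 0 were higher in OE1 and 0 were lower in MI3 against OE3, since the genes past the fold were mostly low ones.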
